A study of Mus musculus with 16 samples.

Results

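Of the 16 hippocampus libraries of this study, 6 carried clearly higher levels of transcripts that mark the thalamus, and the genes that differ between those 6 and the other 10 are described here. The 6 libraries were selected on measured levels of Tcf7l2, Tnnt1, Synpo2, Slc17a6 and Prkcd in these same data. They are WT 4, Dp16 14, 5xFAD-Dp16 1, 5xFAD 6, 5xFAD 13 and 5xFAD 15, named by genotype and by the number in the sample title. They are called the high-marker libraries below, and the other 10 the low-marker libraries. Because the libraries were chosen by the readout, every difference in a gene's level between the 6 and the 10 is given as a description with no test, and errors of fitted differences are standard errors (SE).

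The hippocampus lies directly above the thalamus, with the ventricle and its choroid plexus between parts of them. The 2 structures arise from different divisions of the embryonic forebrain. The hippocampus is telencephalic, and its excitatory cells load glutamate with the vesicular transporter encoded by Slc17a7. The thalamus is diencephalic, and its relay neurons mainly use the transporter encoded by Slc17a6 and keep high levels of the transcription factor Tcf7l2 into adulthood. Transcription factors of the telencephalon, diencephalon and midbrain remain regionally restricted in adult neurons, and astrocytes also differ between these divisions.

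Bulk polyA RNA was sequenced from the hippocampus of mice aged 9 months, with 4 libraries in each of 4 genotypes. WT animals were labelled wild-type C57BL/6J. Dp16 mice carry a duplication of the segment of mouse chromosome 16 that corresponds to human chromosome 21, and 5xFAD mice carry human transgenes with familial Alzheimer's disease mutations, driven by the neuronal Thy1 promoter. 5xFAD-Dp16 mice carry both. The labels give no treatment, and for the mutant groups no background strain. The design counts mice per group, and no label says more about the independence of the samples, so the p-values below measure the spread between these samples.

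The 6 high-marker libraries include 1 of 4 WT, 1 of 4 Dp16, 1 of 4 5xFAD-Dp16 and 3 of 4 5xFAD libraries. They come from 3 female and 3 male mice. The 5xFAD group therefore keeps 1 low-marker library, 5xFAD 10, and each other group keeps 3. Total counts were 22465715 ± 1976934 (SD, n = 6) in the high-marker libraries and 22241786 ± 2563264 (SD, n = 10) in the others. The difference of 223929 counts did not exceed the spread between libraries in a two-sided exact permutation test over 8008 assignments (p = 0.879). It changed sign when WT 2, Dp16 5 or 5xFAD 15 was left out, at -367055, -44821 and -323325 counts. Mitochondrial transcripts took 4.96% to 6.79% of the counts in the 6 libraries and 5.12% to 6.87% in the 10. Among the 6, the library 5xFAD 15 stood apart in several of the lists below, and counts with and without it are given where they rest on it.

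A gene was said to follow the marker content when its fitted difference was at least 1.2-fold and when, in each of the 4 genotypes, every high-marker library lay beyond every low-marker library of that genotype. The fit was edgeR's quasi-likelihood model with genotype and sex as terms, and levels are CPM, that is counts scaled to the library total, after TMM scaling, which sets libraries to a common level for most genes. Of 17132 genes tested, 581 (3.39%) followed in the higher direction and 620 (3.62%) in the lower direction. These shares are set by the choice of libraries, and nothing is read from them. The genes that were higher had a median difference of 0.66 on the log2 scale, with quartiles at 0.43 and 1.12. The genes that were lower had a median of -0.41, with quartiles at -0.52 and -0.33. The median over all genes tested was 0.010. Without 5xFAD 15, 586 genes followed upwards and 558 downwards, of which 551 and 543 were among the 581 and 620. On the authors' RPKM values (reads scaled to gene length and depth) the split moved to 896 higher and 347 lower, with a median over all genes of 0.091.

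The higher side reached further than the lower side. At least 2-fold differences were seen for 183 higher and 6 lower genes, and at least 4-fold differences for 60 higher and 0 lower genes. The higher genes include the 5 markers that chose the libraries and genes that passed the low-count filter only through the 6 libraries. The 2 sides are therefore not on equal terms, and the contrast is a description only. The higher genes were mostly of low level in the low-marker libraries, with a median of 8.22 CPM against 15.1 CPM over all genes tested. The lower genes were of high level there, with a median of 111 CPM. Together the higher genes took 2.76% to 4.40% of all counts in the 6 libraries and 1.78% to 2.25% in the 10. The lower genes took 7.63% to 11.54% in the 6 and 12.7% to 14.9% in the 10. Protein-coding genes made up 91.4% of the higher and 94.7% of the lower genes, against 86.4% of all genes tested. At the 1.2-fold limit, which is 0.2630 on the log2 scale, Cd9 at 0.2636 and Slc6a15 at -0.2630 lay just inside, and Fam171b at -0.2629 and Epb41l1 at -0.2629 just outside.

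**Figure D1:**
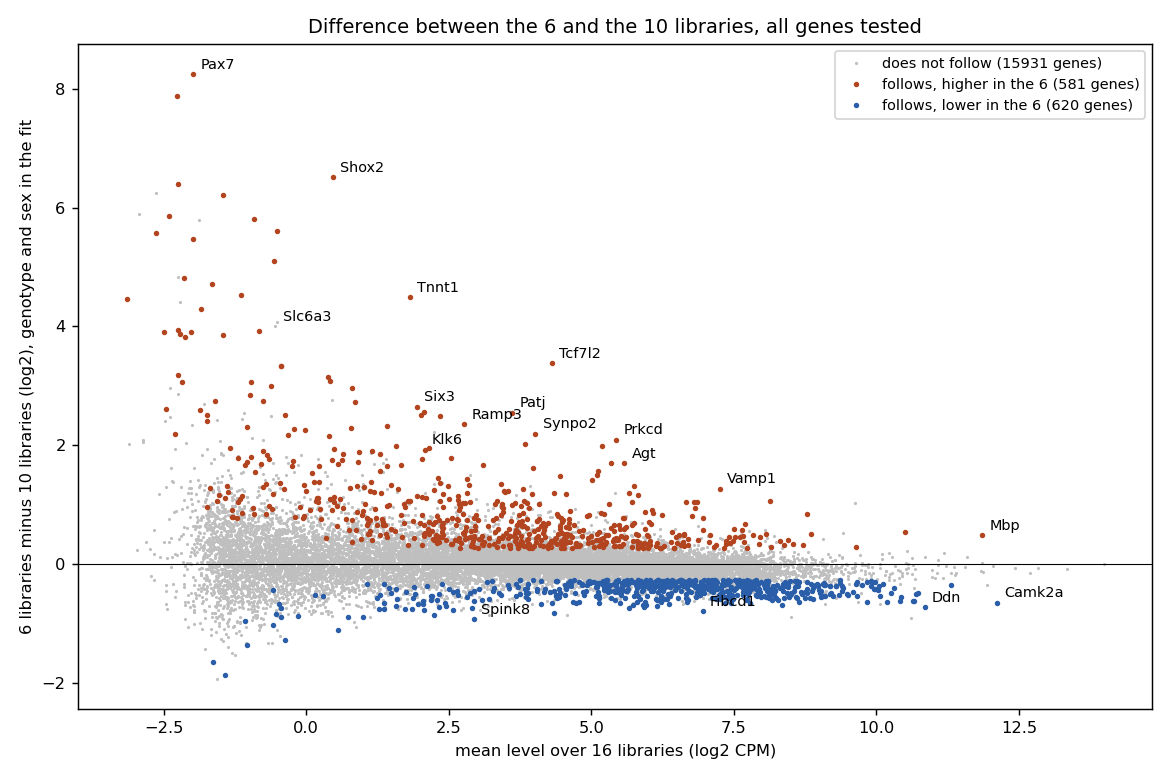
Difference between the 6 high-marker and the 10 low-marker libraries (log2, genotype and sex in the fit, vertical axis) against the mean level over the 16 libraries (log2 CPM, horizontal axis) for all 17132 genes tested. Red points are the 581 genes that follow the markers upwards and blue points the 620 that follow downwards; the red points extend past 4-fold, while the blue points are mostly small differences of abundant genes.

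The 5 genes that chose the libraries are given first, as values only. Tnnt1 (chromosome 7, 4504570 to 4516382, minus strand, GRCm38), which encodes slow skeletal troponin T, was at 22.1 CPM in WT 4, 28.4 in Dp16 14, 31.1 in 5xFAD-Dp16 1, 26.0 in 5xFAD 6, 15.99 in 5xFAD 13 and 21.4 in 5xFAD 15. In the other 10 libraries it had a lowest value of 0.481, a median of 1.11 and a highest value of 1.97 CPM. All 6 were far above all 10, and the fitted difference was 4.49 ± 0.21 (SE, log2).

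Tcf7l2 (chromosome 19, 55741820 to 55933654, plus strand), a high mobility group transcription factor that acts with beta-catenin, was at 92.5 CPM in WT 4, 141 in Dp16 14, 68.0 in 5xFAD-Dp16 1, 62.8 in 5xFAD 6, 56.6 in 5xFAD 13 and 99.96 in 5xFAD 15. The 10 other libraries lay between 6.25 and 10.4 CPM with a median of 8.42, again with no overlap. Its fitted difference was 3.38 ± 0.16.

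Synpo2 (chromosome 3, 123076519 to 123236149, minus strand), which encodes an actin-binding protein of Z-discs, ranged from 25.8 to 66.3 CPM with a median of 38.1 in the 6 libraries and from 7.33 to 13.2 with a median of 9.36 in the 10. Slc17a6 (chromosome 7, 51622006 to 51671119, plus strand) ranged from 55.1 to 142 CPM with a median of 86.6 in the 6 and from 12.9 to 31.4 with a median of 21.7 in the 10. Prkcd (chromosome 14, 30595354 to 30626210, minus strand), which encodes the delta isoform of protein kinase C, ranged from 86.6 to 155 CPM in the 6 and from 16.9 to 38.3 in the 10. None of the 3 genes overlapped between the sets. Dp16 14 held the highest level of the 6 for Tcf7l2, Synpo2, Slc17a6 and Prkcd, and 5xFAD 13 the lowest for Tcf7l2 and Tnnt1.

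The mean log2 level of the 5 markers is also given as values only, since the choice of libraries sets the gap between the 6 and the 10. It lay 2.35 (5xFAD 13) to 3.37 (Dp16 14) above the mean of the low-marker libraries. Within the 10, it ran only from -0.385 in Dp16 5 to 0.277 in WT 2.

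**Figure D2:**
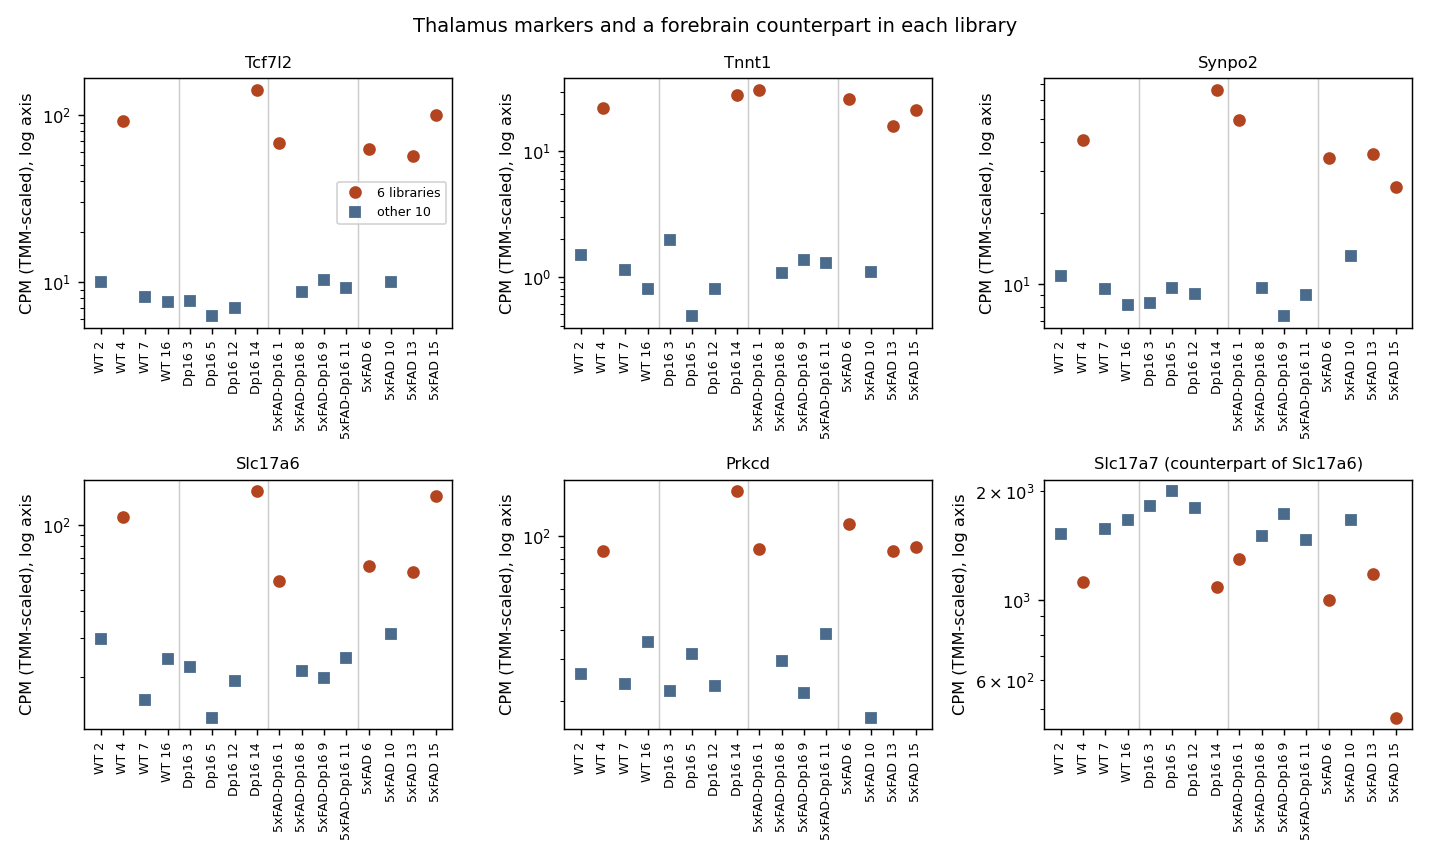
Levels (CPM, TMM-scaled, log axis) of the 5 thalamus markers and of Slc17a7 in each of the 16 libraries, with vertical lines between genotypes. Red circles are the 6 high-marker libraries and blue squares the other 10; for Tcf7l2 the circles lie at 56.6 CPM and above and the squares at 10.4 CPM and below, and for Slc17a7 the order is turned.

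The label thalamic was set against 15 other thalamus markers that were not used in the choice. All 15 had a positive difference, 12 followed the content and the median was 1.203. Shox2 and Gbx2 passed the low-count filter only through the 6 libraries, so these counts and the median describe the list and support nothing. Their summed level was 587 to 870 CPM in the 6 libraries and 335 to 393 CPM in the 10. Shox2, a homeobox factor of thalamic neurons, had 330 to 924 reads in the 6 libraries and 0 to 16 in the 10. Gbx2, a homeobox factor of the embryonic thalamus, had 26 to 134 reads in the 6 and 0 to 5 in the 10. Ramp3, which encodes a receptor activity-modifying protein, was at 13.6 to 27.9 CPM in the 6 and 2.58 to 6.68 in the 10, a difference of 2.36 ± 0.22. Rgs16, a regulator of G-protein signalling, was at 24.6 to 45.3 CPM against 5.61 to 11.2 (2.02 ± 0.15). Rora, a nuclear receptor enriched in sensory relay nuclei, was at 69.5 to 119 CPM against 32.2 to 53.0 (1.16 ± 0.10).

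The smaller differences in this list came from genes that the low-marker libraries also express at a fair level. Ntng1, which encodes the axonal adhesion protein netrin G1, was at 51.9 to 88.4 CPM in the 6 and 31.2 to 51.1 in the 10 (0.78 ± 0.10). The T-type calcium channel gene Cacna1g was at 43.6 to 78.7 CPM against 36.8 to 44.3 (0.63 ± 0.09), but it did not follow in every genotype. Lhx9 at 0.35 and Ptpn3 at 0.12 did not follow either. In bulk tissue a larger number of thalamic cells and more RNA per cell cannot be told apart.

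The 12 largest differences among genes with a mean level of at least 1 on the log2 CPM scale were led by Tnnt1 and Tcf7l2, and 8 of the 12 had no part in the choice of the libraries. Six3, a homeobox factor, was at 8.30 to 20.6 CPM in the 6 libraries and 0.338 to 5.79 in the 10 (2.65 ± 0.51). Sfrp5, a secreted Wnt antagonist, was at 8.39 to 26.1 CPM against 0.445 to 4.75 (2.55 ± 0.40). Patj, a scaffold of tight junctions, was at 25.6 to 54.0 CPM against 4.75 to 11.2 (2.55 ± 0.22). The forkhead factor Foxp2 was at 7.997 to 21.4 CPM against 0.578 to 4.98 (2.51 ± 0.33). Rab37, Ramp3, Mab21l1 and Rgs16 had differences of 2.48, 2.36, 2.33 and 2.02. For each of these 8 genes the 2 sets of libraries did not overlap, which the rule asks only within each genotype. Over all 17132 genes, with no genotype term, 243 higher and 328 lower genes of at least 1.2-fold did not overlap either. The 8 were picked for large differences, so nothing is read from their lack of overlap.

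Many transcription factors of the diencephalon and midbrain were near absent from the low-marker libraries. Of 23 listed and tested, 12 followed upwards and 21 had a positive difference, with a median of 2.55. Several passed the low-count filter only through the 6 libraries, so these counts describe them and support nothing. Most are so rare in the low-marker libraries that read counts describe them better than ratios. Pax7, a paired-box factor of the midbrain roof and pretectum, had 241 reads in WT 4, 167 in Dp16 14, 6 in 5xFAD-Dp16 1, 64 in 5xFAD 6, 96 in 5xFAD 13 and 299 in 5xFAD 15, and 2 reads in all 10 others together. Gata3, a zinc finger factor of midbrain inhibitory neurons, had 309, 277, 86, 128, 71 and 456 reads in the same order and 0 to 10 in the 10. Irx2, an Iroquois homeobox factor, had 178, 224, 54, 262, 87 and 501 reads in that order, and 0 to 30 in the 10. Sox14 had 13 to 121 reads in the 6 and 0 or 1 in the 10.

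These factors did not move in step with the thalamus markers. The library 5xFAD-Dp16 1 had the highest Tnnt1 level of all 16 libraries and the second-highest Gbx2 count, but the lowest Pax7, Sox14 and Irx2 counts of the 6. The library 5xFAD 15 had the highest Pax7, Sox14, Gata3 and Irx2 counts, while its Synpo2 level was the lowest of the 6. Zic1, a zinc finger factor of the dorsal neural tube, was at 59.1 to 80.5 CPM in the 6 and 8.53 to 53.7 in the 10 (1.57 ± 0.40). Otx1 at 0.21 and Meis2 at -0.09, which are both expressed in the telencephalon too, did not follow.

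**Figure D3:**
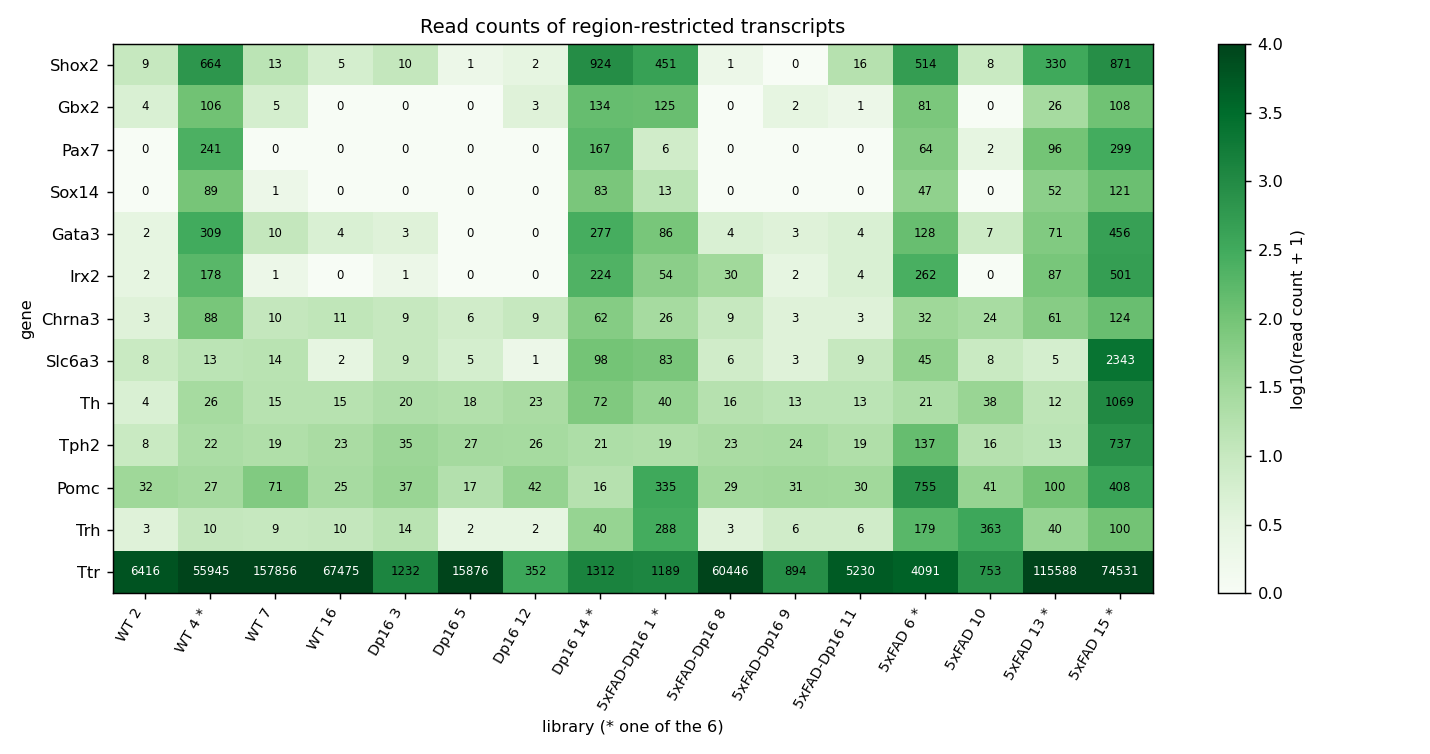
Read counts of 13 transcripts restricted to thalamus, midbrain, habenula, hypothalamus or choroid plexus (rows) in the 16 libraries (columns, an asterisk marks the 6 high-marker libraries), with colour on a log10(count + 1) scale. Shox2 has 330 to 924 reads in the 6 and 0 to 16 in the 10, whereas Slc6a3 is high only in 5xFAD 15 (2343 reads) and Ttr varies in both sets.

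Markers of other regions that border the hippocampus or the thalamus differed from library to library. Of 11 habenula markers, 4 followed upwards. One of them, Pou4f1, passed the low-count filter only through the 6 libraries, so this count describes the list and supports nothing. Pou4f1, a POU factor of the habenula and midbrain, had 3 to 164 reads in the 6 libraries and 0 to 3 in the 10. The nicotinic receptor gene Chrna3 had 26 to 124 reads against 3 to 24, and Chrnb3 and Slc5a7 had differences of 2.27 and 1.22. Tac2 at -0.59 ± 0.26, Gpr151 at -0.07 ± 0.42 and Gng8 at -0.02 ± 0.35, which are also in the habenula list, did not follow. The summed level of the list was 34.1 to 52.5 CPM in the 6 and 42.6 to 57.8 CPM in the 10.

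Genes of midbrain and hindbrain monoamine neurons were high in 1 library. Slc6a3, the dopamine transporter, had 2343 reads in 5xFAD 15, 5 to 98 in the other 5 high-marker libraries and 1 to 14 in the 10. Th, which encodes tyrosine hydroxylase, had 1069 reads in 5xFAD 15 and at most 72 in any other library. Slc18a2, the vesicular monoamine transporter, had 1203 reads there and at most 80 elsewhere. Tph2, the neuronal tryptophan hydroxylase of serotonin neurons, had 737 reads there, 137 in 5xFAD 6 and at most 35 elsewhere. Of the 5 monoamine genes tested of 8 listed, only Ddc, which encodes the decarboxylase of dopamine and serotonin synthesis, followed in every genotype (0.90). The median of the list was 0.92 with 5xFAD 15 and 0.63 without it.

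Hypothalamic peptide genes also differed from library to library, and 0 of the 6 tested of 9 listed followed, with the largest difference at 1.80 ± 0.86 for Avp, the vasopressin gene. Pomc had 755 reads in 5xFAD 6, 408 in 5xFAD 15 and 335 in 5xFAD-Dp16 1, 100 in 5xFAD 13, 27 in WT 4 and 16 in Dp16 14, against 17 to 71 in the low-marker libraries. WT 4 lay within that range and Dp16 14 just below it. Trh had 288 reads in 5xFAD-Dp16 1, but also 363 in 5xFAD 10, a low-marker library. Of 11 striatal markers, Drd2, the D2 dopamine receptor gene, followed upwards with 5.52 to 17.7 CPM against 2.87 to 5.91 (0.96 ± 0.26), with the highest level again in 5xFAD 15. Of 8 neocortical markers 0 followed, and the largest difference was 0.57 for Deptor. With 3.39% and 3.62% of all genes following upwards and downwards, counts of 0 or 1 say nothing particular to the hypothalamic, striatal and neocortical lists.

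Genes of hippocampal pyramidal cells and of forebrain excitatory neurons were on the lower side. Spink8, a gene of pyramidal cells with the largest lower difference among the well-expressed genes, was at 6.48 CPM in WT 4, 5.71 in Dp16 14, 4.37 in 5xFAD-Dp16 1, 6.89 in 5xFAD 6, 5.04 in 5xFAD 13 and 2.04 in 5xFAD 15. In the 10 its lowest level was 8.32, its median 9.90 and its highest 13.5 CPM. Its fitted difference was -0.93 ± 0.19, and 5xFAD 15 was the lowest of the 6. Fibcd1, a marker of CA1 pyramidal cells, was at 35.8 to 122 CPM with a median of 85.6 in the 6 and 106 to 224 with a median of 170 in the 10 (-0.80 ± 0.18), so its ranges overlapped across genotypes.

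The next genes in size of the lower differences were Ankrd63, Cort, Dlx6, Grem1, Wnt2, Glp2r, Rprml, Tbata, Ddn and Krt73, from -0.83 to -0.73. Ddn, which encodes the dendritic protein dendrin, was at 807 to 1770 CPM in the 6 and 1842 to 2538 in the 10. Cort, the neuropeptide cortistatin of interneurons, was at 1.33 to 7.11 CPM in the 6 and 5.90 to 12.5 in the 10. Rprml was at 25.3 to 42.7 CPM in the 6 and 55.0 to 68.4 in the 10, with the smallest error of these genes (-0.75 ± 0.09). Whether the counting used the strand is not given in the sources used here, so for Dlx6 reads of its antisense transcript cannot be told apart.

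Of 17 markers of CA1, CA2 and CA3 pyramidal cells, 7 followed downwards (Spink8, Fibcd1, Pou3f1, Rgs14, Mpped1, Dkk3 and Wfs1), 14 had a negative difference and the median was -0.40. Pou3f1, a POU factor of pyramidal cells, was at 40.7 to 67.8 CPM against 70.3 to 103 (-0.61 ± 0.08). Wfs1, which encodes wolframin of the endoplasmic reticulum, was at 83.1 to 164 CPM against 137 to 227 (-0.40 ± 0.09). Cdh24 went the other way at 0.48, and without 5xFAD 15 it did not follow. The summed level of the 17 genes was 657 to 1195 CPM in the 6 and 1270.0 to 1689 CPM in the 10. Of 11 dentate granule cell markers 0 followed, although 9 had a negative difference and the median was -0.28. With 3.62% of all genes following downwards, a count of 0 of 11 says nothing particular to these cells. The largest difference was -0.70 ± 0.25 for Dsp, which encodes desmoplakin, with 18.2 to 78.5 CPM in the 6 and 49.6 to 77.2 in the 10. Prox1, the homeobox factor of granule cells, was at 65.7 to 129 CPM in the 6 and 87.3 to 141 in the 10 (-0.27 ± 0.10).

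Forebrain excitatory neuron genes were lower almost as a block. Of 12 tested, 11 followed downwards, and Arpp21 (-0.32 ± 0.14) was the exception. Camk2a, the alpha subunit of calcium/calmodulin-dependent kinase II, was at 1736 to 4317 CPM with a median of 3436 in the 6 and 4670 to 6128 with a median of 5443 in the 10 (-0.66 ± 0.15). Nrgn, which encodes neurogranin of dendritic spines, was at 805 to 1482 CPM against 1627 to 2107 (-0.63 ± 0.11). Itpka, an inositol trisphosphate kinase of spines, was at 82.9 to 153 CPM against 187 to 253 (-0.66 ± 0.11). The summed level of the list was 4094 to 9112 CPM in the 6 and 10756 to 13990 CPM in the 10. The median of the list was -0.62 with all libraries and -0.53 without 5xFAD 15.

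Telencephalic transcription factors mirrored those of the diencephalon and midbrain, with smaller differences. All 14 had a negative difference, 5 followed, and the median was -0.54. Bcl11b, a zinc finger factor of forebrain projection neurons, was at 67.7 to 144 CPM against 169 to 234 (-0.65 ± 0.12). Neurod2 and Neurod6, basic helix-loop-helix factors of pyramidal neurons, had differences of -0.58 ± 0.13 and -0.57 ± 0.15. Without 5xFAD 15 the median was -0.47 and the same number, 5, followed.

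Paralogous genes of transmission split along these lines. The vesicular glutamate transporter Slc17a7 was at 471 CPM in 5xFAD 15, 999.98 in 5xFAD 6 and 1083 to 1298 in the other 4 of the 6, with a median of 1101, against 1464 to 1996 with a median of 1667 in the 10 (-0.63 ± 0.16). The counts of Slc17a6, its counterpart, amounted to 4.24% to 13.1% of those of Slc17a7 in 5 of the high-marker libraries and to 28.7% in 5xFAD 15. In the 10 the ratio was 0.647% to 1.96%. The ratio is not per length and is compared only between libraries.

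Among genes of the release machinery, 3 followed upwards and 2 downwards of 17. Syt2, the fast calcium sensor synaptotagmin 2, was at 51.4 to 208 CPM against 28.1 to 48.9 (1.31 ± 0.28). Vamp1, a vesicle SNARE, was at 139.7 to 447 CPM against 88.7 to 131 (1.27 ± 0.20), while Vamp2, the main SNARE of forebrain synapses, had a difference of -0.27 ± 0.10 and did not follow. Syt9 was higher by 1.23. Sv2b and Cplx2, a vesicle protein and a complexin of forebrain excitatory terminals, were lower by 0.52 and 0.50 on the log2 scale.

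Channels that shape firing also divided by isoform, with 4 of 18 higher and 2 lower. Hcn4, a pacemaker channel of thalamic relay cells, was at 8.87 to 18.3 CPM in the 6 and 2.27 to 7.28 in the 10 (1.78 ± 0.19). Hcn2 was at 249 to 360 CPM against 205 to 255 (0.33 ± 0.08). The sodium channel subunits Scn4b and Scn1a were higher, at 1.49 ± 0.25 and 0.80 ± 0.15, and Scn8a was lower at -0.31 ± 0.09. The T-type channel gene Cacna1h was lower at -0.45 ± 0.09, against the 0.63 of Cacna1g.

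Of 17 ionotropic glutamate receptor subunits, 7 followed downwards and 0 upwards, with a median of -0.27. Grin2b and Grin2a, which encode subunits of NMDA receptors, had the largest differences. Grin2b was at 147 to 465 CPM against 484 to 744 (-0.58 ± 0.18) and Grin2a at 95.5 to 246 against 234 to 400.2 (-0.54 ± 0.14). Gria1, Gria2 and Gria3 of the AMPA receptor were lower by 0.43, 0.38 and 0.38, but Gria4, the fourth subunit, had a difference of 0.39 ± 0.10 and did not follow. Of the metabotropic receptors, Grm4 at 0.89 was higher, and Grm5 at -0.36 was lower. Of the GABA-A receptors, 3 of 12 were lower, among them Gabra5 at -0.46 and Gabrg3 at -0.42, and 0 were higher.

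Inhibitory neuron genes were mixed. Of 14, Pvalb, the calcium buffer parvalbumin, followed upwards, with 31.2 to 92.8 CPM against 22.1 to 33.8 (0.85 ± 0.24). Dlx6, Npy and Cck, a homeobox factor and 2 neuropeptides of forebrain interneurons, followed downwards at -0.77, -0.57 and -0.41. The general markers Gad1 at 0.11 and Gad2 at 0.37 did not follow.

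Members of the families of the selecting genes were mixed, and the counts here include the selecting genes Prkcd, Tnnt1 and Synpo2. Of 9 protein kinase C isoforms, Prkcd and Prkch (1.02 ± 0.12) were higher and Prkca, Prkce and Prkcb were lower at -0.52, -0.51 and -0.46. Of 12 troponin and sarcomere genes, Tnnt1, Synpo2 and Tnni3 were higher. Tnni3 lay between 0 and 0.246 CPM in the 10 and between 0.388 and 1.16 CPM in the 6. It passed the low-count filter only through the 6 libraries, so it supports nothing. Tnnt2, the cardiac paralog of Tnnt1, had a difference of -0.15 ± 0.19. Synpo, the paralog of Synpo2 found in dendritic spines, was lower, with 88.3 to 200.9 CPM against 218 to 300 (-0.59 ± 0.14). Of 14 Wnt pathway genes only Lef1, which encodes a factor of the same family as Tcf7l2, followed, with 18.3 to 29.5 CPM against 6.91 to 12.3 (1.27 ± 0.11), and Axin2, a common target of the pathway, was at 0.14. A count of 1 of 14 is near the share over all genes (3.39% upwards and 3.62% downwards) and says nothing of the pathway. The heavy neurofilament gene Nefh was at 118 to 216 CPM against 78.3 to 105 (0.95 ± 0.09), Nefm was higher by 0.28, and Nefl had a difference of 0.07 ± 0.07.

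**Figure D4:**
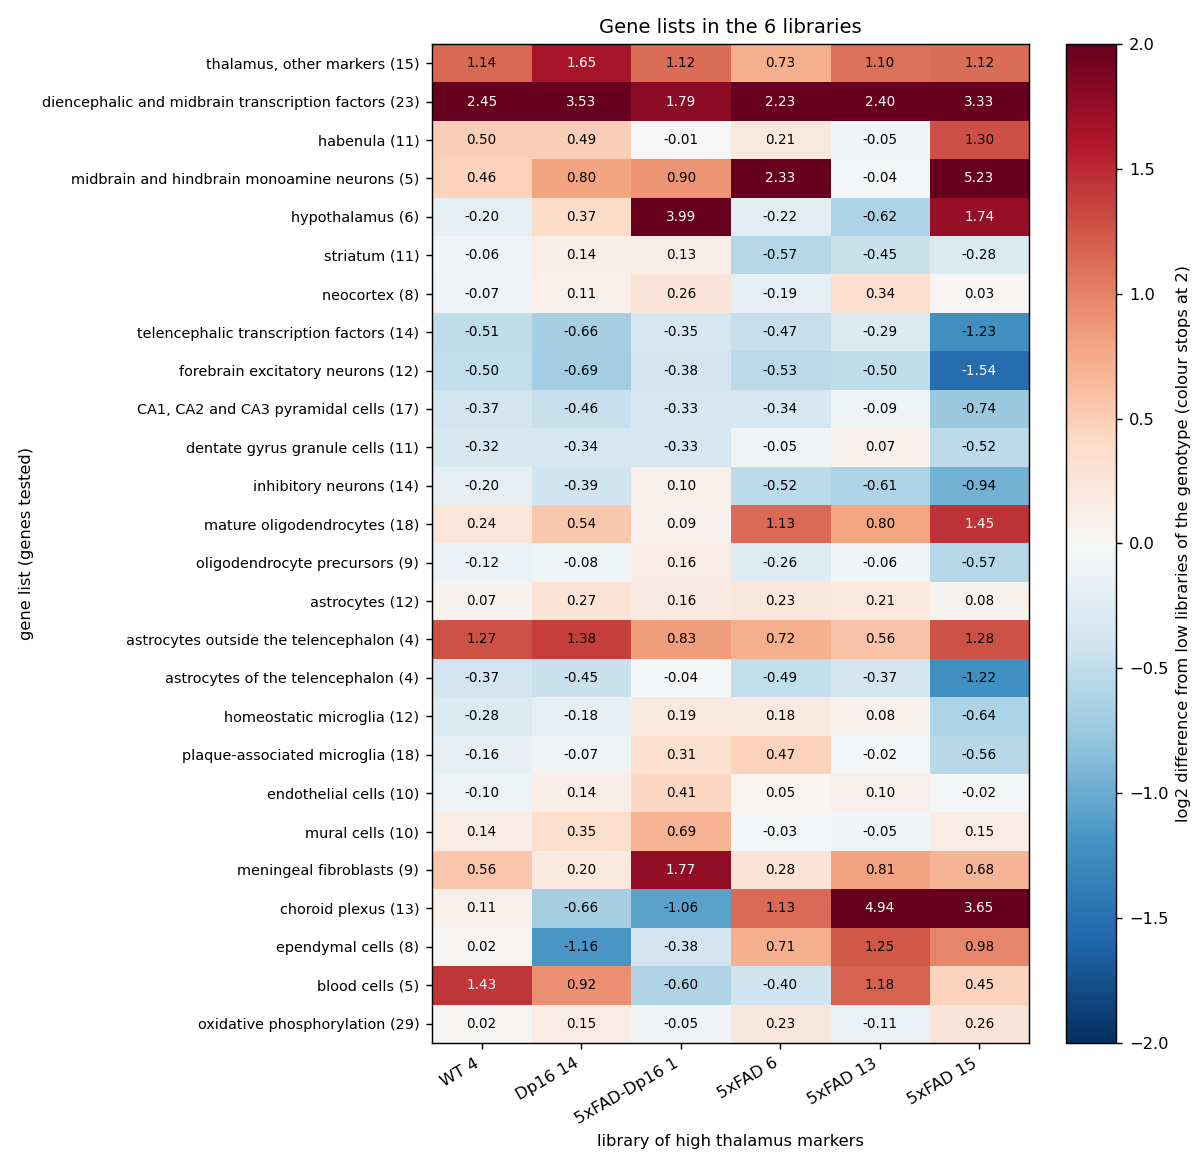
Median log2 difference of the gene lists shown (rows, number of genes tested in brackets) in each of the 6 high-marker libraries (columns) from the mean of the low-marker libraries of the same genotype. The thalamus list and the diencephalic and midbrain factors are positive in all 6, telencephalic factors and forebrain excitatory genes are negative in all 6, with -1.54 for the excitatory genes in 5xFAD 15, and the choroid plexus row runs from -1.06 to 4.94.

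Oligodendrocyte genes were higher as a group but followed in part. All 18 markers of mature oligodendrocytes had a positive difference, 6 followed, and the median was 0.48 (5 and 0.44 without 5xFAD 15). Mbp, the myelin basic protein gene, was at 3869 to 7002 CPM with a median of 4391 in the 6 and 2526 to 3844 with a median of 3239 in the 10 (0.49 ± 0.13). Klk6, a secreted protease of oligodendrocytes, was at 4.70 to 26.7 CPM against 1.28 to 5.23 (1.92 ± 0.34). The list's median difference was 1.13 in 5xFAD 6, 0.80 in 5xFAD 13 and 1.45 in 5xFAD 15, which have a single low-marker library to be set against. That library, 5xFAD 10, had the lowest mean of this list among all 16, at -0.36 from the mean of the 10. The median difference was 0.24 in WT 4, 0.54 in Dp16 14 and 0.09 in 5xFAD-Dp16 1. Of 9 precursor markers, Tnr was lower (-0.42) and the others did not follow. With 3.62% of all genes following downwards, a count of 1 of 9 says nothing particular to precursors.

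Astrocytes separated by region of origin. All 4 genes of astrocytes outside the telencephalon followed upwards, with a summed level of 576 to 977 CPM in the 6 and 289 to 394 CPM in the 10. Agt, which encodes angiotensinogen, was at 111 CPM in WT 4, 91.5 in Dp16 14, 91.0 in 5xFAD-Dp16 1, 128 in 5xFAD 6, 95.8 in 5xFAD 13 and 169.6 in 5xFAD 15, against 17.7 to 55.0 CPM with a median of 27.4 in the 10. The fitted difference of Agt was 1.70 ± 0.16. The GABA transporter gene Slc6a11 was at 347 to 585 CPM against 188 to 245 (1.07 ± 0.08), and Itih3 and the glycine transporter gene Slc6a9 were higher by 1.01 and 0.88. Of the 4 genes of telencephalic astrocytes 0 followed, all 4 had a negative difference and the median was -0.34. With 3.62% of all genes following downwards, a count of 0 of 4 says nothing particular to this list. Most of the list is shared with the telencephalic transcription factors.

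General astrocyte genes were split, with 4 of 12 higher and 1 lower. Aqp4, the water channel of astrocyte endfeet, was at 212 to 439 CPM against 143 to 246 (0.49 ± 0.08). Slc1a3, a glutamate transporter, was lower (-0.35 ± 0.09), and Gfap, the intermediate filament gene of reactive astrocytes, was at -0.05 ± 0.11.

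Lists of microglia, vessels and energy metabolism held 1 gene that followed. With 10 to 29 genes in a list and 3.39% and 3.62% of all genes following upwards and downwards, counts of 0 or 1 are near the share over all genes and say nothing particular to these lists. Of 12 homeostatic microglia genes 0 followed, with a range of -0.34 to 0.07, and of 18 plaque-associated microglia genes 1 did, Cd9, at the edge of the limit. Fcrls had the largest difference of the homeostatic list, at -0.34 ± 0.17, and P2ry12, a purinergic receptor of resting microglia, had a difference of -0.13 ± 0.10. Of 10 endothelial genes 0 followed, and the largest difference was 0.24 for Tek. Of 10 mural cell genes 0 followed, with a median of 0.26 and the largest difference at 0.94 ± 0.31 for Tagln, a smooth muscle gene. Of 29 oxidative phosphorylation genes 0 followed, and all lay between -0.09 and 0.21, the latter for Uqcrh. Of 12 immediate early genes, Egr4 (-0.64 ± 0.13) and Fosb (-0.38 ± 0.12) followed downwards, and the median was -0.44.

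Genes of the ventricle lining, the brain surface and blood varied between libraries, and 0 followed over all 4 genotypes. With 3.39% and 3.62% of all genes following upwards and downwards, a count of 0 says nothing particular to these lists. Of 13 choroid plexus genes the largest difference was 1.35 ± 1.08 for Otx2. Ttr, which encodes transthyretin, ran from 1189 reads in 5xFAD-Dp16 1 to 115588 in 5xFAD 13 within the 6, and from 352 in Dp16 12 to 157856 in WT 7 within the 10. Meningeal fibroblast genes had a positive difference in 9 of 9 with a median of 0.70, led by Slc47a1 at 1.30. In the 5xFAD and 5xFAD-Dp16 libraries alone 8 of these 9 followed upwards, with a median of 1.18, and in WT and Dp16 alone 0 of 9, with a median of 0.46. The 5 blood cell genes had a median of 0.45, led by Hbb-bt at 0.64. In WT and Dp16 alone 5 of 5 followed upwards, with a median of 0.84, and in the other 2 genotypes 0 of 5, with a median of -0.19. Fewer libraries set the order in such subsets, so more genes follow there over the whole table too, at 1398 higher in 5xFAD and 5xFAD-Dp16 and 1454 higher in WT and Dp16. The 8 ependymal genes had a median of -0.18, with the largest difference at -0.39 for Tmem212. The globin genes of the blood list have near-identical copies, so their individual counts are uncertain.

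The genotype comparisons were fitted with and without a term for the 2 sets of libraries, since 3 of 4 5xFAD libraries and 1 of 4 WT libraries are high-marker ones. The fit without the term uses the labels alone. The fit with it also takes in the choice of libraries, which was made on these data, so its p-values depend on that choice, and the 5xFAD estimate leans on the single low-marker library of that group. Without the term, edgeR's quasi-likelihood test called 1244 genes (7.26%) between 5xFAD and WT at an adjusted p below 0.05, 909 higher and 335 lower (1.96%). With the term it called 787 (4.59%), 659 higher and 128 lower (0.747%). A total of 754 genes were called in both fits, 490 only without the term and 33 only with it. The loss was uneven, with 267 of 909 higher calls and 223 of 335 lower calls lost. Of the 335 genes lower without the term, 43 also followed the content downwards, against 620 (3.62%) of all 17132 genes tested. Of the 490 lost, 27 followed it in either direction, against 581 (3.39%) upwards and 620 downwards of all genes. The 27 of 490 do not exceed the share over all genes, and no link of the lost calls to the content is read from them. The number called with the term was 349 when WT 4, the only high-marker WT library, was left out and 1471 without 5xFAD 13. The genes called lower varied most, with 6 without WT 4 and 653 without 5xFAD 13 against 128 with all libraries, while those called higher numbered 343 and 818. DESeq2 called 784 higher and 400 lower with the term, and edgeR called 752 higher and 225 lower when the mean level of the 5 markers took the place of the 2 sets.

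The distance between the list medians of the 2 fits differed from list to list, also among neuronal and among glial lists. For release machinery genes the median of 5xFAD minus WT was -0.18 without the term and -0.12 with it. For general astrocyte genes it was 0.27 and 0.26, and for genes of astrocytes outside the telencephalon 0.69 and 0.15. For forebrain excitatory genes the median of 5xFAD minus WT was -0.50 without the term and -0.24 with it, and the genes called lower went from 2 to 0 of 12. For pyramidal cell genes it was -0.59 and -0.38, with 2 of 17 called lower in each fit. For mature oligodendrocyte genes it was 0.52 and 0.24, with 0 of 18 called in either. The 15 other thalamus markers went from 0.43 to -0.29, with 0 called. The 18 plaque-associated genes had medians of 2.72 and 2.69 with 17 and 18 called higher, and the 12 homeostatic genes 1.11 and 1.17 with all 12 called in both. A larger part of the 5xFAD than of the WT libraries is high-marker. Shifts between the fits therefore largely restate the content difference of each list, and nothing about genotype is read from them.

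**Figure D5:**
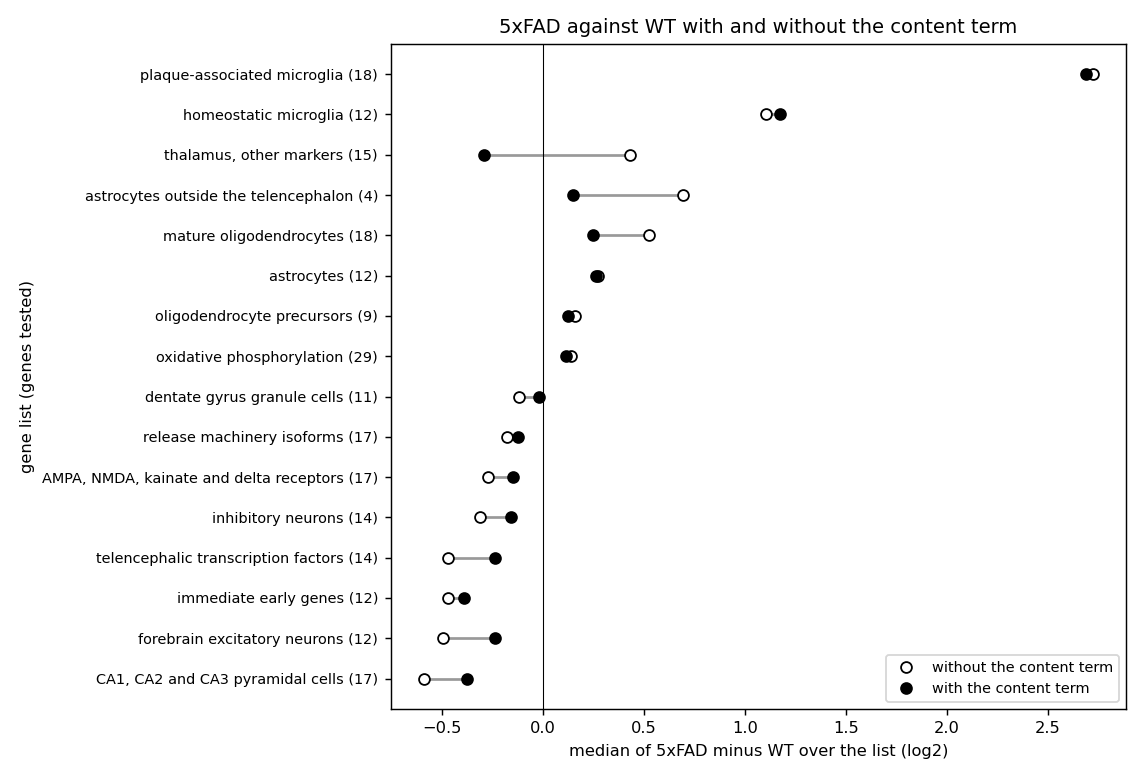
Median log2 difference of 5xFAD from WT for 16 gene lists (rows, number of genes tested in brackets), without (open circles) and with (filled circles) the term for the 6 high-marker libraries. Plaque-associated microglia lie at 2.72 and 2.69, whereas the other thalamus markers move from 0.43 to -0.29 and forebrain excitatory genes from -0.50 to -0.24. The shifts largely restate the content differences of the lists.

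Genes named in this paragraph and the next were chosen after their values were seen, to show calls that were kept or lost between the fits. Inhba, which encodes the activin A subunit, fell in 5xFAD in both fits, by 0.96 without the term and by 0.79 with it (adjusted p = 0.00462 and 0.0115, edgeR with Benjamini-Hochberg adjustment). Epha6, an ephrin receptor gene, fell by 0.97 and 0.72 (adjusted p = 0.0216 and 0.0233), and Wfs1 fell by 0.65 and 0.46 (adjusted p = 0.0276 and 0.0258). Each of the 3 lost the call with the term in 2 of the 16 fits that left out 1 library, Inhba and Epha6 without WT 4 and without 5xFAD 10, and Wfs1 without WT 2 and without WT 4. Wnt2 fell by 1.21 and 0.84 (adjusted p = 0.0217 and 0.0330), but lost the call in 7 of the 16. All 4 genes also followed the content downwards, with differences of -0.34, -0.52, -0.40 and -0.76 for Inhba, Epha6, Wfs1 and Wnt2.

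Receptor subunits were among the lost calls. Grin2a had a difference of -0.87 ± 0.25 without the term (adjusted p = 0.0499) and -0.62 ± 0.19 with it (adjusted p = 0.0763). Gria2 went from -0.54 (adjusted p = 0.0485) to -0.37 (adjusted p = 0.0649), and Grin1 from -0.41 (adjusted p = 0.0466) to -0.29 (adjusted p = 0.0801). The estimates of the class II antigen genes Cd74, H2-Aa and H2-Ab1 hardly moved, at 2.43 and 2.44 for Cd74, while their adjusted p went from 0.0218, 0.0240 and 0.0175 to 0.0600, 0.0809 and 0.0619. Cst7 and Trem2 of microglia and Gfap of astrocytes rose in both fits and kept the call in all 16 fits that left out 1 library, with 8.83, 3.29 and 2.16 on the log2 scale with the term. Mme, which encodes the amyloid-degrading protease neprilysin and was higher in the high-marker libraries, was called only with the term, at -0.87 (adjusted p = 0.0189) against -0.49 without it (adjusted p = 0.270). Mme lost the call without WT 4 and without 5xFAD 10, and its estimate with the term ran from -1.08 without 5xFAD 15 to -0.55 without 5xFAD 10.

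Between Dp16 and WT, where each group has 1 high-marker library, the term made little difference. The test called 39 genes (0.228%) without it and 52 (0.304%) with it, and all 39 were among the 52. The forebrain excitatory genes had a median of 0.11 without the term and 0.09 with it, and 0 of 12 were called in either fit. The oligodendrocyte genes had 0 of 18 called in either fit.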

How the data were processed

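The authors deposited read counts and RPKM values per gene for 55385 genes in 16 libraries; the counts were used for every main result and the deposited RPKM table for an alternative. HISAT2 2.1.0, SAMtools 1.5, HTSeq 0.6.1, FastQC 0.11.5, bcl2fastq and the build GRCm38 are named in the submitters' processing notes, and the strand setting of the counting is not given in the sources used here. Groups come from sample titles, whose numbers are unique, so no samples are paired.

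The counts were filtered with filterByExpr (minimum count 10) to 17132 genes, scaled by TMM and fitted with edgeR 4.0.16 (R 4.3.3, robust quasi-likelihood) with genotype, sex and the 2 sets of libraries as terms. Genotype contrasts were tested with Benjamini-Hochberg adjustment over all 17132 genes at 0.05. DESeq2 1.42.0 and limma 3.58.1, the latter on log2(RPKM + 0.1), were alternatives. The fit was tested on simulated data.

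The libraries, the 38 gene lists and the tests were chosen with earlier results of these data known. Named genes are the 5 markers, the 12 largest higher and 12 largest lower differences among well-expressed genes that follow, and up to 3 following members of each list (with none, the largest), with paralogs and other members where they serve a comparison; some members are not reported here. Totals ran from 16922937 to 25308693 counts per library; genes of a few reads are given as counts.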

Additional observations from a re-analysis of the deposited data

Results flagged for a closer look

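In all, 5 values were far from the rest of their set, out of 88 sets of values tested within the 6 or the 10 libraries. Chance alone would mark about 1 set in 20. The sets were the list means, the levels of the 5 markers that chose the libraries and the total counts. The mean difference of the telencephalic transcription factors in 5xFAD 15 was -1.35, against -0.617 to -0.315 in the other 5 high-marker libraries. For the forebrain excitatory genes it was -1.53 in 5xFAD 15, against -0.624 to -0.458. For the telencephalic astrocyte genes, most of which are also in the list of telencephalic factors, it was -1.19 against -0.467 to -0.102. For the monoamine neuron genes it was 5.34 in 5xFAD 15, against 0.0245 to 1.56. In the low-marker libraries, the protein kinase C isoforms had a mean of -0.22 in 5xFAD 10, against -0.064 to 0.0878 in the other 9. The library 5xFAD 15 also had the lowest Thy1 level of the 8 transgene carriers, at 1353 CPM; the part of its tissue content in that level was not tested.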

How the results depend on the processing

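The count of genes that follow moved most with the limit and the order that was asked. At 1.5-fold 323 genes were higher and 85 lower, and at 2-fold 183 and 6. Asking every high-marker library to lie beyond all 10 others, with no genotype term, left 243 and 328. With WT and Dp16 libraries alone, where fewer libraries set the order, the counts were 1454 and 1161, and with 5xFAD and 5xFAD-Dp16 alone 1398 and 1076. With RPKM they were 896 and 347. Leaving out 1 library gave 586 to 1120 higher and 558 to 1128 lower genes; higher genes were 1000 without WT 4, 1120 without 5xFAD-Dp16 1 and 924 without 5xFAD 10, and lower genes 1128 without 5xFAD-Dp16 1, where 1 genotype then sets no order.

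The number of genes called between 5xFAD and WT was 1244 with no content term, 1520 with no low-count filter, 1184 with DESeq2 and 301 without the 6 libraries, when 5xFAD keeps 1 library that is assumed to vary like the other groups. Leaving out 1 library gave 349 to 1471. Between Dp16 and WT it was 470 with no low-count filter, 106 with DESeq2 and 39 to 56 on leaving out 1 library. The causes of these moves were not tested. The difference in total counts ranged from -367055 to 704947 and was negative without WT 2 (-367055), Dp16 5 (-44821) or 5xFAD 15 (-323325). Among alternative values for 91 named genes, 2027 moved by less than the spread between replicates and 58 by more. For the named genes that follow, 0 values changed sign. Changes of sign were not counted for the named genes that do not follow. The medians of the habenula, striatum, neocortex, vesicular transporter, metabotropic and GABA-A receptor, release, Wnt, sarcomere, microglia, choroid plexus, ependymal and blood lists changed sign under at least 1 alternative. No paired analysis was possible because the sample numbers differ between the groups. Transcripts of a few reads per library limit what can be said of midbrain and hypothalamic genes.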
